A study of Drosophila melanogaster with 4 samples.

Results

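Odorant-binding proteins (Obps) are small secreted proteins that carry hydrophobic molecules, and they are best known from the lymph of the insect sensilla for smell and taste, where they meet odorants and tastants before the receptors do. Many members of the family are also made outside chemosensory organs, among them glia, the male reproductive tract and the fat body, the larval organ of nutrient storage and secretion. The fly genes lie largely in tandem clusters, and each gene name gives its cytological position. The 43 genes described here are all those whose symbol starts with Obp in the deposited tables, out of 13990 distinct symbols.

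RNA came from fat bodies of Drosophila melanogaster larvae (yw) in the third instar at 110 h after egg laying, with 10 fat bodies pooled in each sample. In the ND-75-i group, dMef2-Gal4, a driver known for its activity in muscle, drove RNAi of ND-75, which encodes a subunit of complex I of the mitochondrial respiratory chain. Con larvae carried the same driver with RNAi of white, an eye pigment gene. Each group had 2 samples, and nothing in the labels says that they came from separate crosses, so p-values reflect no more than how these samples vary, possibly for technical reasons. The question is what a complex I defect in muscle does to RNA levels in the fat body, a separate organ. Values are FPKM, fragments scaled to transcript length and to the mapped fragments of a library, and pairs of values are replicate 1 and replicate 2. Changes are ND-75-i minus Con on the log2(FPKM + 1) scale from limma, which understates the change of genes with low FPKM, and a gene is called at an adjusted p below 0.05.

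All 43 genes had a status of OK in all 4 libraries, so every value listed at 0 was an estimate and not a failure. The bounds deposited with the values imply between 9572000 and 11874000 fragments per library. Of the 10 fat body markers found, 3 storage protein genes (Lsp1beta, Lsp1gamma and Lsp2) carried a status of HIDATA, for too many fragments, in 2 or more libraries. The 7 markers with an OK status in all 4 libraries summed to 16631 and 27591 FPKM in ND-75-i and to 76206 and 79891 FPKM in Con. These sums leave out Lsp2, which had an OK status in ND-75-i, at 16637 and 25411 FPKM, but no estimate in Con. Of 9 chemosensory organ markers found, 8 were below 1 FPKM in every library, the co-receptor gene Ir8a was listed at 0 throughout, and the highest single value was 1.61 FPKM, for the odorant co-receptor gene Or83b. Of 10023 genes tested, 778 were called higher and 109 lower in ND-75-i. Rescaling the libraries by median ratios gave 348 higher and 139 lower, and quantile normalization gave 605 and 379. With any 1 library left out, limma called 0 to 2 higher and 0 to 1 lower. The median tested gene was 0.25 higher in ND-75-i on the log2 scale, and at -0.01 once rescaled by median ratios.

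Few Obp genes were expressed in these fat body samples, and those that were spanned a very wide range. The samples also held RNA of markers of other tissues. The salivary gland markers alone summed to 38372 and 29693 FPKM in ND-75-i and 85656 and 39874 FPKM in Con. Which cells the RNA of each Obp gene came from was not tested. Only 7 of the 43 genes (16.3%) had a mean of at least 10 FPKM over the 4 libraries, against 33.6% of all 13882 genes with an OK status. A further 3 lay between 1 and 10 FPKM, and 33 (76.7%) averaged below 1 FPKM, against 28.8% of all genes. Below 1 FPKM in every library were 29 genes, of which 13 were listed at 0 in all 4. In order of their mean over the 4 libraries, the 7 expressed genes were Obp99b at 42683 FPKM, Obp99c at 1687 FPKM, Obp44a at 556 FPKM, Obp99a at 425 FPKM, Obp56d at 50.2 FPKM, Obp83cd at 19.6 FPKM and Obp83ef at 13.8 FPKM. Obp44a and Obp99a changed places between the groups, as did Obp83cd and Obp83ef, and the place of Obp56d rests on replicate 2 of each group. Obp83cd reached 10 FPKM in the ND-75-i libraries only, at 45.4 and 27.9 FPKM, against 2.67 and 2.51 FPKM in Con. The low class held Obp56a, Obp49a and Obp83g.

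**Figure D1:**
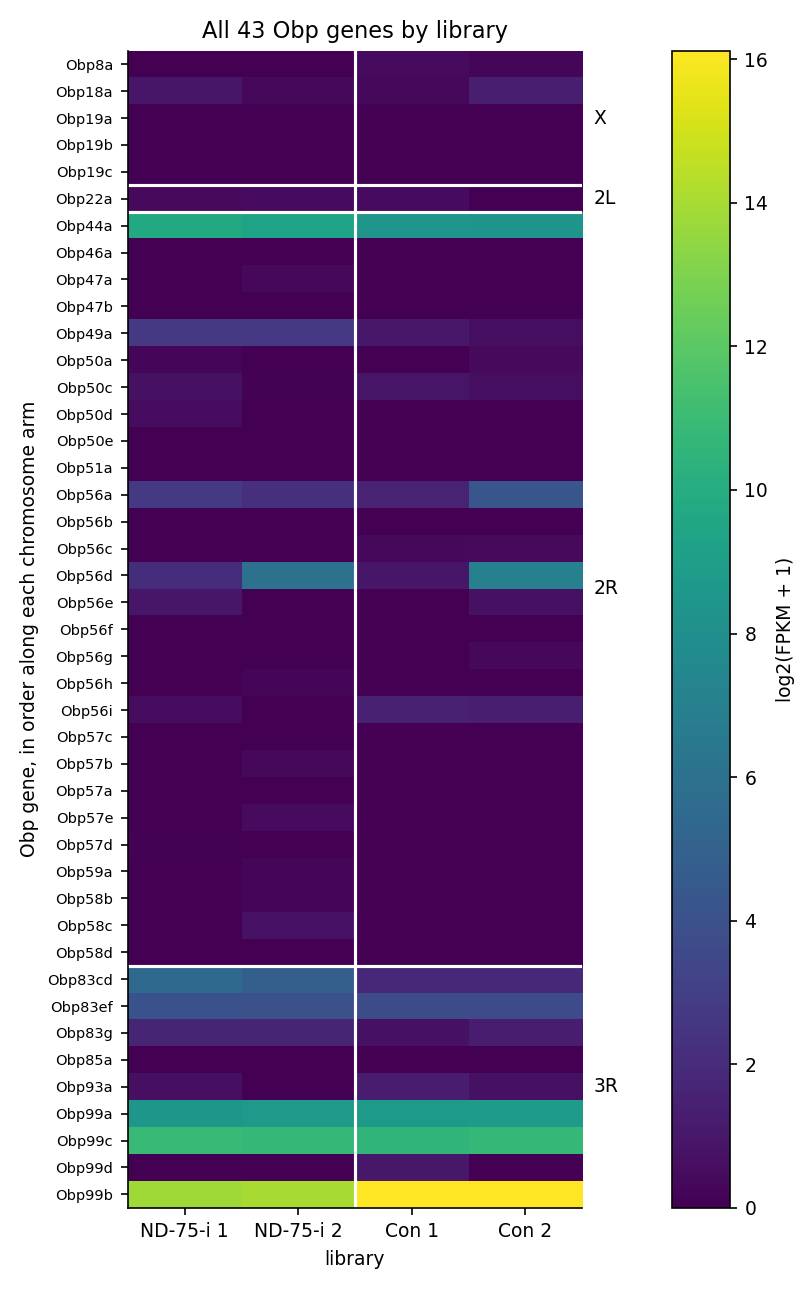
Level of all 43 Obp genes in the 4 libraries, as log2(FPKM + 1) by colour; rows follow each chromosome arm (named at the right) and columns are the 2 ND-75-i libraries followed by the 2 Con libraries. Most rows are dark, and the bright rows are Obp44a and the Obp99 genes, with Obp99b brighter in Con.

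The levels followed the gene clusters only in part. With genes of the 43 less than 100 kb apart counted as 1 cluster, 32 genes fell into 7 clusters and 11 stood alone. Family genes under other symbols were not counted. The Obp99 cluster on 3R held 3 expressed genes of 4 and the Obp83 cluster on 3R held 2 of 3. On 2R, which carries 28 of the 43 genes, the Obp56 cluster had 1 expressed gene of 9, and the Obp50, Obp57 and Obp58-Obp59a clusters had none of 4, 5 and 4. The 3 genes of the X-linked Obp19 cluster that are among the 43 were listed at 0 in every library. Within the Obp99 cluster Obp99d, between Obp99c and Obp99b on the chromosome, was at 0 and 0 FPKM in ND-75-i and 1.09 and 0 FPKM in Con.

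In total, the family took 1.86% and 2.02% of the summed FPKM of the ND-75-i libraries and 8.27% and 8.68% of the Con libraries. Nearly all of it was Obp99b, which made up 82.0% and 84.8% of the family's FPKM in ND-75-i and 96.8% and 96.4% in Con. The other 42 genes together reached 3208 and 2901 FPKM in ND-75-i and 2295 and 2670 FPKM in Con. In the summed FPKM of a library, the storage protein genes Lsp1beta and Lsp1gamma counted as 0 throughout. Lsp2 counted at 16637 and 25411 FPKM in ND-75-i and as 0 in Con, where its status was HIDATA. The shares of the groups thus have unlike denominators.

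The 11 genes with at least 1 FPKM in at least 2 libraries were tested. At an adjusted p below 0.05, limma called 3 of them higher in ND-75-i (Obp83cd, Obp49a and Obp44a), where 7.76% of all tested genes were called higher. It called 1 lower (Obp99b), where 1.09% of all tested genes were called lower, and 8.85% in either direction. The other 7 did not pass. Both ND-75-i values lay above both Con values for 5 of the 11 genes and below both for 3. Over all tested genes the shares were 53.7% higher, 21.7% lower and 75.4% in total. The median change of the 11 genes was 0.15, against 0.25 over all genes tested. These 11 are not the whole family, and Obp56i passed the filter only through the Con libraries. Obp49a, Obp56d and Obp83g reached 1 FPKM in a single Con library, so they met the filter only with the ND-75-i libraries. Obp49a is among the 3 called higher, and Obp49a and Obp83g are among the 5 with higher values, so these counts are partly shaped by the filter.

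**Figure D2:**
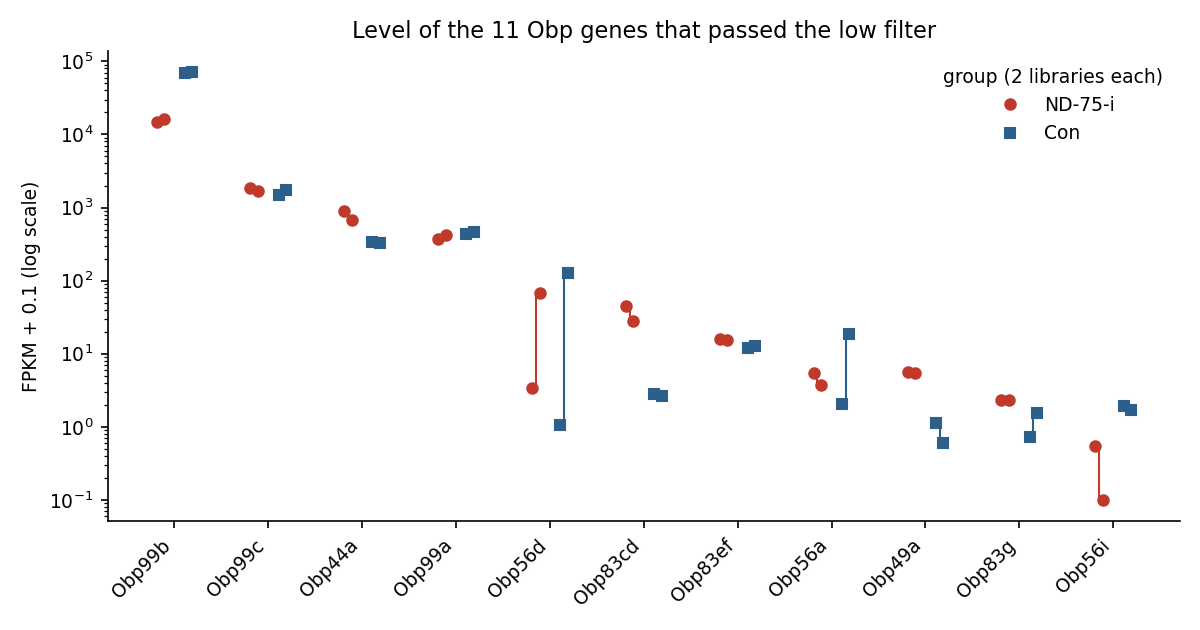
FPKM of the 11 tested Obp genes in each library, with 0.1 added, on a log axis; circles are the 2 ND-75-i libraries, squares the 2 Con libraries, and a line joins the replicates of a group. Obp99b stands far above the rest and is lower in ND-75-i, Obp83cd and Obp49a are higher in ND-75-i, and Obp56d differs more between replicates than between groups.

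Obp99b had the highest FPKM of the 13882 genes with an OK status in both Con libraries and fell in ND-75-i; Lsp1beta, Lsp1gamma and Lsp2, without an OK status there, were not ranked. The gene, also known as tsx, is known for sex-dependent expression in the adult fat body. In the tables it lies on 3R from 25541974 to 25542532. It stood at 14578 and 16165 FPKM in ND-75-i, against 68905 and 71085 FPKM in Con. The bounds deposited with these values were narrow, from 14474 to 14683 FPKM in ND-75-i replicate 1 and from 68664 to 69146 FPKM in Con replicate 1. The groups lay far apart and the replicates of each group close together. The means were 15372 ± 1122 FPKM in ND-75-i and 69995 ± 1542 FPKM in Con (SD, n = 2 each), so that the Con mean was 4.55 times the ND-75-i mean. The log2 change was -2.19 (SE 0.203, 95% interval -2.75 to -1.62, limma adjusted p = 0.0217). Even so, Obp99b still ranked 6th and 5th in the ND-75-i libraries among genes with an OK status in all 4, where CG34291 was the highest at 40727 and 36043 FPKM. Lsp2, unranked but with an OK status in ND-75-i, stood above Obp99b there at 16637 and 25411 FPKM.

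Obp99b took 1.52% and 1.72% of the summed FPKM of the ND-75-i libraries, against 8.0% and 8.37% of the Con libraries. Lsp2 was part of the summed FPKM in ND-75-i only, so these denominators are unlike. Among the 149 tested genes with a mean of at least 1000 FPKM, 4 including Obp99b changed by as much or more in the downward direction, and limma called 5 of the 149 lower and 25 higher. The change was -2.48 after median-ratio rescaling (limma adjusted p = 0.0229). Quantile normalization, which gives every library the same highest values, brought it to -1.35 (adjusted p = 0.0193). With any 1 library left out, the change was -2.26 to -2.11 and limma's adjusted p was 0.0677 to 0.137, above the threshold each time. The adjusted p was 0.303 with no low filter, the highest over the 13 alternatives, and 0.0152 with a mean of at least 5 FPKM, the lowest.

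Levels of some fat body and salivary gland markers are given beside this result. Of the fat body markers, the storage protein gene Lsp1alpha was at 2893 and 4506 FPKM in ND-75-i and 28004 and 25267 FPKM in Con, and the receptor gene Fbp1 at 22.5 and 392.5 FPKM in ND-75-i and 14971 and 17897 FPKM in Con. Lsp1alpha was called lower and Fbp1 did not pass (limma adjusted p = 0.0594). Of the 7 list members tested, 1 was called lower and 3 higher (GRHR, desat1 and CG11198), and after median-ratio rescaling 1 was called in each direction. Over all tested genes, 1.09% were called lower and 7.76% higher. The gene desat1 was at 3946 and 2954 FPKM in ND-75-i and 1275 and 1302 FPKM in Con. CG11198 was at 319 and 174 FPKM in ND-75-i and 57.7 and 44.4 FPKM in Con. GRHR was at 131 and 129 FPKM in ND-75-i and 73.9 and 70.3 FPKM in Con. In the salivary gland list of 10 markers, limma called 1 higher (ng1) and 0 lower, with 4 lower at an unadjusted p below 0.05 and 0 lower in limma-voom. Both ND-75-i values were below both Con values for 6 of the 10 and above for 3, where 75.4% of all tested genes had groups apart in either direction. Their summed FPKM was 38372 and 29693 in ND-75-i and 85656 and 39874 in Con. The male dosage compensation RNA roX1 was at 97.0 and 17.8 FPKM in ND-75-i and 27.1 and 16.3 FPKM in Con. The part of these markers in the fall of Obp99b was not tested. In whole fat bodies, fewer cells of a type and less RNA per cell cannot be told apart.

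The other expressed genes of the cluster were not called. Obp99c, from 25511456 to 25512504 on 3R, was at 1857 and 1688 FPKM in ND-75-i and 1491 and 1710 FPKM in Con, with overlapping groups. Its log2 change was 0.15 (SE 0.126, 95% interval -0.20 to 0.50, limma adjusted p = 0.402), which rescaling by median ratios turned to -0.14 and quantile normalization to -0.39. The end of Obp99c overlaps Gycalpha99B in the tables by 47 bases, but Gycalpha99B was below 3 FPKM in every library. Obp99a, from 25497382 to 25498056, was at 375 and 424 FPKM in ND-75-i and 440 and 463 FPKM in Con. The groups did not overlap but lay close together. Its log2 change was -0.18 (SE 0.102, 95% interval -0.46 to 0.11, limma adjusted p = 0.253), and only after quantile normalization did it pass, at -0.64 (adjusted p = 0.0457; 0.116 to 0.670 over the other alternatives).

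Ratios within a library do not depend on its scaling. Obp99b was 7.85 and 9.57 times Obp99c in ND-75-i, against 46.2 and 41.6 times in Con. It was 38.9 and 38.1 times Obp99a in ND-75-i, against 156.7 and 153.6 times in Con. The ratio of Obp99c to Obp99a moved far less, at 4.95 and 3.98 in ND-75-i and 3.39 and 3.70 in Con. Of the 7 other genes that lie between Obp99a and Obp99b in the tables, 6 were tested. Limma called 0 of them, with 2 higher in ND-75-i at an unadjusted p below 0.05 (Gycalpha99B and dmrt99B) and 0 called in limma-voom. The most abundant, the mitotic checkpoint gene Bub3, was at 34.6 and 35.1 FPKM in ND-75-i and 20.5 and 30.6 FPKM in Con.

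**Figure D3:**
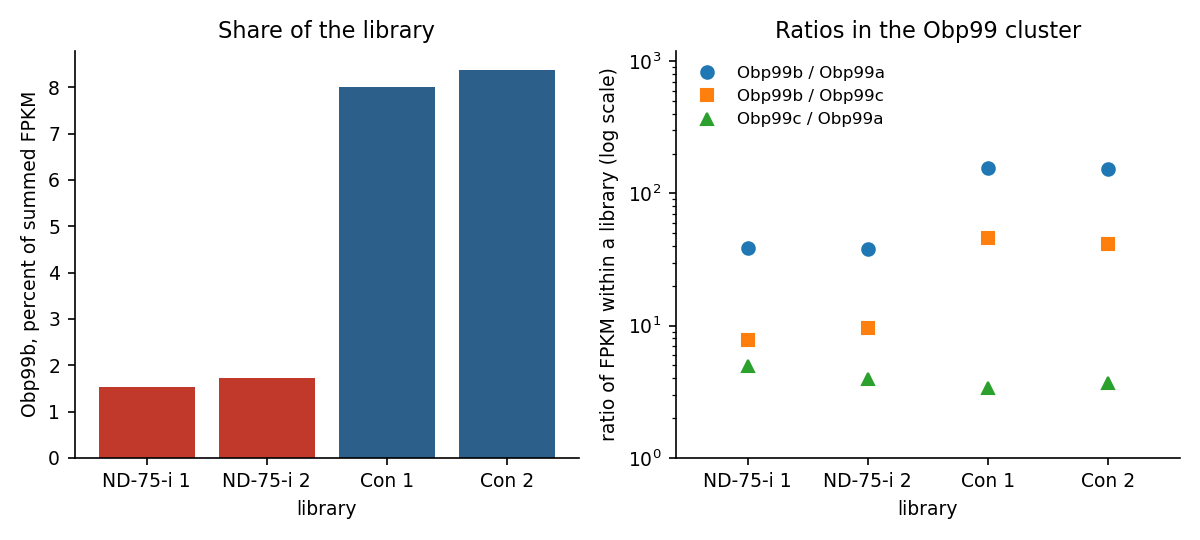
Left, Obp99b as a percent of the summed FPKM of each library (bars start at 0); right, ratios of FPKM within a library among Obp99a, Obp99b and Obp99c on a log axis, with the ND-75-i libraries left of the Con libraries. Obp99b takes 1.52% and 1.72% in ND-75-i against 8.0% and 8.37% in Con, and both ratios with Obp99b on top are lower in ND-75-i. The summed FPKM includes Lsp2 in the ND-75-i libraries only.

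Obp83cd had the largest change in the upward direction among the 11 tested genes. Obp83cd and Obp83ef are double-domain members, each once annotated as separate genes. Obp83cd, from 1933856 to 1935457 on 3R, was at 45.4 and 27.9 FPKM in ND-75-i, against 2.67 and 2.51 FPKM in Con. Both ND-75-i libraries lay more than 10 times above both Con libraries. The mean was 36.6 ± 12.4 FPKM in ND-75-i and 2.59 ± 0.110 FPKM in Con (SD, n = 2 each), a ratio of 14.1. The log2 change was 3.35 (SE 0.272, 95% interval 2.59 to 4.11, limma adjusted p = 0.0189). Of the 10023 genes tested, 63 had a larger change, 47 of which were called. After median-ratio rescaling the change was 3.10 (adjusted p = 0.0230). The call was lost with any 1 library left out (3.01 to 3.69, adjusted p = 0.0512 to 0.142), with no low filter (0.0555) and in limma-voom on the fragment numbers implied by the deposited bounds (3.66, adjusted p = 0.0856). The lowest adjusted p over the alternatives was 0.0127, with the replicate number as a block.

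The gene beside it was not called. Obp83ef, from 1935403 to 1936740, was at 15.8 and 15.1 FPKM in ND-75-i and 11.8 and 12.5 FPKM in Con. Its log2 change was 0.32 (SE 0.114, limma adjusted p = 0.133). Rescaling by median ratios brought it to 0.05. The loci overlap by 55 bases and lie on opposite strands in the annotation at hand. Because the strand setting of the counting is not given in the sources used here, fragments from that stretch cannot be told apart. Within a library, Obp83cd was 2.87 and 1.85 times Obp83ef in ND-75-i, against 0.226 and 0.201 times in Con. Obp83g, from 1937392 to 1938019, was at 2.21 and 2.23 FPKM in ND-75-i and 0.624 and 1.43 FPKM in Con (log2 change 0.70, SE 0.291, limma adjusted p = 0.163). Of the 3 genes of the Obp83 cluster, 1 was called.

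Obp49a, known for its role in the taste sensilla, where it takes part in the suppression of sweet taste by bitter compounds, rose and stayed at a low level in both groups. It lies on 2R from 8577564 to 8578460. It was at 5.51 and 5.31 FPKM in ND-75-i, against 1.04 and 0.508 FPKM in Con, and the groups were well apart. The log2 change was 1.87 (SE 0.241, 95% interval 1.20 to 2.54, limma adjusted p = 0.0330). The values rest on few fragments: the deposited bounds imply 48 and 42 in ND-75-i and 8 and 4 in Con. The gene was no longer called when libraries were rescaled by median ratios (1.67, adjusted p = 0.0538), in limma-voom (adjusted p = 0.0988), with no low filter (adjusted p = 0.0695) and with any 1 library left out (adjusted p = 0.0615 to 0.137), against a lowest adjusted p of 0.0236, with a pseudocount of 5.

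Obp44a, known from glia of the central nervous system, ranked next after Obp99c in mean FPKM over all libraries and rose in ND-75-i. The gene lies on 2R from 4021875 to 4022588. It stood at 893 and 664 FPKM in ND-75-i, against 339 and 327 FPKM in Con. The ND-75-i replicates differed from each other more than the Con replicates did, and the groups did not overlap. The mean was 779 ± 162 FPKM in ND-75-i and 333 ± 8.88 FPKM in Con (SD, n = 2 each), a ratio of 2.34. The log2 change was 1.21 (SE 0.172, 95% interval 0.73 to 1.69, limma adjusted p = 0.0378). It was no longer called when rescaled by median ratios (0.92, adjusted p = 0.0649), under quantile normalization (0.72, adjusted p = 0.0518), in limma-voom (1.09, adjusted p = 0.0529), with no low filter (adjusted p = 0.0843) and with any 1 library left out (0.99 to 1.42, adjusted p = 0.0536 to 0.171), against a lowest adjusted p of 0.0252, with the replicate number as a block.

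Markers of nervous tissue were measured in the same libraries. Of 7 glial markers, limma called 3 higher in ND-75-i, where 7.76% of all tested genes were called higher. The count was 0 when rescaled by median ratios, 4 under quantile normalization and 0 in limma-voom. All 7 had both ND-75-i values above both Con values, as did 53.7% of all tested genes. Their summed FPKM was 236 and 174 in ND-75-i and 111 and 105 in Con. The glial fate gene repo, which did not pass (limma adjusted p = 0.0728), was at 3.78 and 2.61 FPKM in ND-75-i and 0.768 and 1.06 FPKM in Con. The called gene moody, which acts in the blood-brain barrier, was at 15.8 and 12.7 FPKM in ND-75-i and 5.83 and 5.31 FPKM in Con. Obp44a was more abundant than the sum of these markers in every library. Of 6 neuronal markers tested, limma called 3 higher (elav, n-syb and fne), against 1 when rescaled by median ratios, 4 under quantile normalization and 0 in limma-voom. Syt1 was lower in both ND-75-i libraries without passing (limma adjusted p = 0.277). The RNA-binding protein gene elav was at 13.7 and 10.7 FPKM in ND-75-i and 4.04 and 3.34 FPKM in Con. The part of glial or neuronal RNA in the levels of these Obp genes was not tested.

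**Figure D4:**
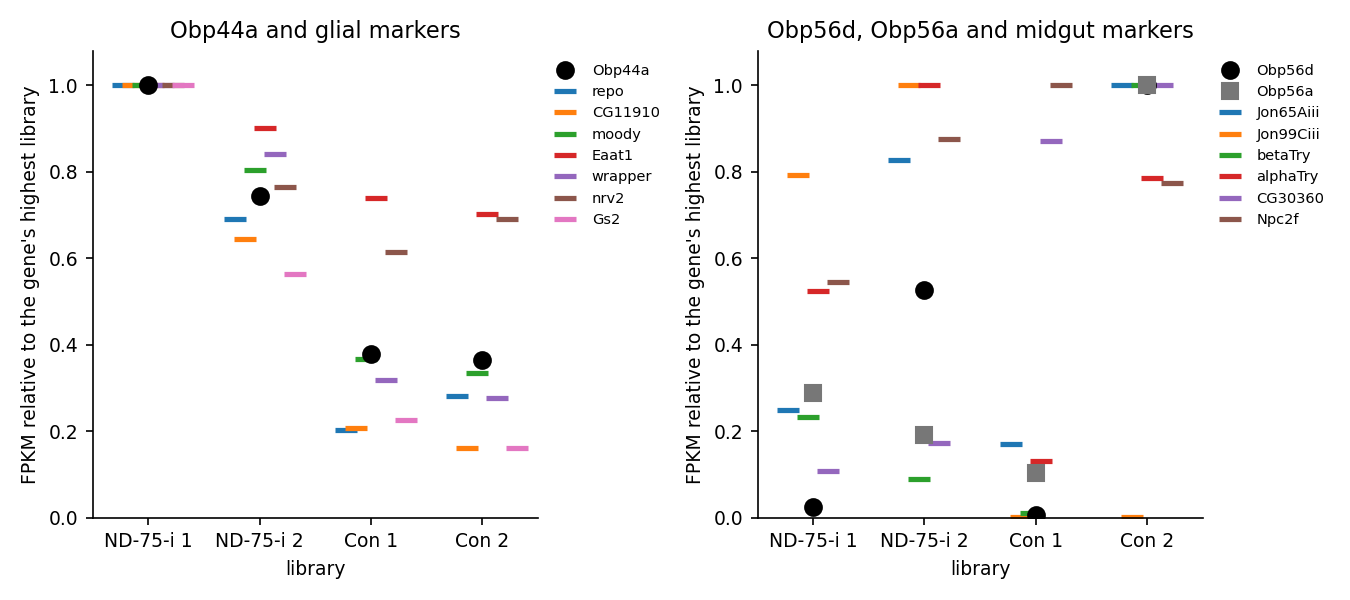
FPKM in each library relative to the gene's own highest library, for Obp44a with 7 glial markers (left) and for Obp56d and Obp56a with 6 midgut markers (right); filled symbols are Obp genes, bars are markers, and ND-75-i libraries stand left of Con libraries. Obp44a and all 7 glial markers are highest in ND-75-i replicate 1, and Obp56d is higher in replicate 2 of both groups.

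The detected genes of the Obp56 cluster on 2R varied between replicates rather than between groups, or lay near the limit of detection. Obp56d, from 15590642 to 15591300, was at 3.28 and 67.7 FPKM in ND-75-i and 0.974 and 128.8 FPKM in Con. It was high in replicate 2 and low in replicate 1 of either group, so that the Con values enclosed the ND-75-i values. Its log2 change was 0.10 with an SE of 2.58 (95% interval -7.10 to 7.30, limma adjusted p = 0.980), and no direction can be read from it. With the replicate number as a block, the change was also 0.10 and the SE was 0.511 (limma adjusted p = 0.893). Only 7 of 10023 tested genes, Obp56d among them, had a value of FPKM + 1 at least 10 times higher in replicate 2 than in replicate 1 in both groups, a count made after the values of Obp56d were seen, and 4 genes were at least 10 times higher in replicate 1 in both groups. The others were CG33333, CG7465 and 4 small nucleolar RNAs. CG33333 was at 0.715 and 114.3 FPKM in ND-75-i and 0.202 and 175.9 FPKM in Con.

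Obp56a, from 15585228 to 15586015, stood out in 1 library. It was at 5.41 and 3.62 FPKM in ND-75-i and 1.96 and 18.8 FPKM in Con, and Con replicate 2 was the highest. The log2 change was -0.49 (SE 1.0, limma adjusted p = 0.721), and it was 0.88 without Con replicate 2. Some midgut markers were also higher in replicate 2. The serine protease gene Jon65Aiii was at 198 and 658 FPKM in ND-75-i and 136 and 796 FPKM in Con, and the trypsin gene alphaTry at 25.3 and 48.2 FPKM in ND-75-i and 6.28 and 37.9 FPKM in Con. The trypsin gene betaTry, at 22.3 and 8.46 FPKM in ND-75-i and 1.0 and 95.4 FPKM in Con, was higher in replicate 2 in Con only. Npc2f, at 6.26 and 10.1 FPKM in ND-75-i and 11.5 and 8.87 FPKM in Con, was higher in replicate 2 in ND-75-i only. Of the 6 midgut markers tested, limma called the protease gene Jon99Ciii higher, at 82.3 and 103.7 FPKM in ND-75-i and 0.108 and 0.106 FPKM in Con. It called CG30360 lower, at 5.80 and 9.23 FPKM in ND-75-i and 46.8 and 53.6 FPKM in Con. The midgut list of 10 genes summed to 341 and 839 FPKM in ND-75-i and 202 and 992 FPKM in Con, and 4 of its members were below 1 FPKM in every library. The part of midgut RNA in the levels of Obp56a and Obp56d was not tested.

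Obp56i, from 15752222 to 15756219, was at 0.449 and 0 FPKM in ND-75-i and 1.82 and 1.59 FPKM in Con. Both ND-75-i values lay below both Con values, and the implied numbers of fragments were 4 and 0 in ND-75-i and 14 and 13 in Con. The log2 change was -1.17 (SE 0.302) and did not pass (limma adjusted p = 0.0857, and 0.0561 to 0.385 over its 12 alternatives). Of 12 germline and gonad markers, 8 were tested and limma called 0 (2 lower at an unadjusted p below 0.05, and 0 in limma-voom). Over all 12, both ND-75-i values lay below both Con values for 8, which include the untested genes can and tj. The share of 21.7% for such genes is over tested genes only, so the bases are unlike. The testis tubulin gene betaTub85D was at 18.3 and 2.78 FPKM in ND-75-i and 39.8 and 37.8 FPKM in Con. The list summed to 95.8 and 20.1 FPKM in ND-75-i and 152 and 127 FPKM in Con, and its part in the level of Obp56i was not tested. The remaining 6 genes of the cluster stayed below 1 FPKM in every library.

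**Figure D5:**
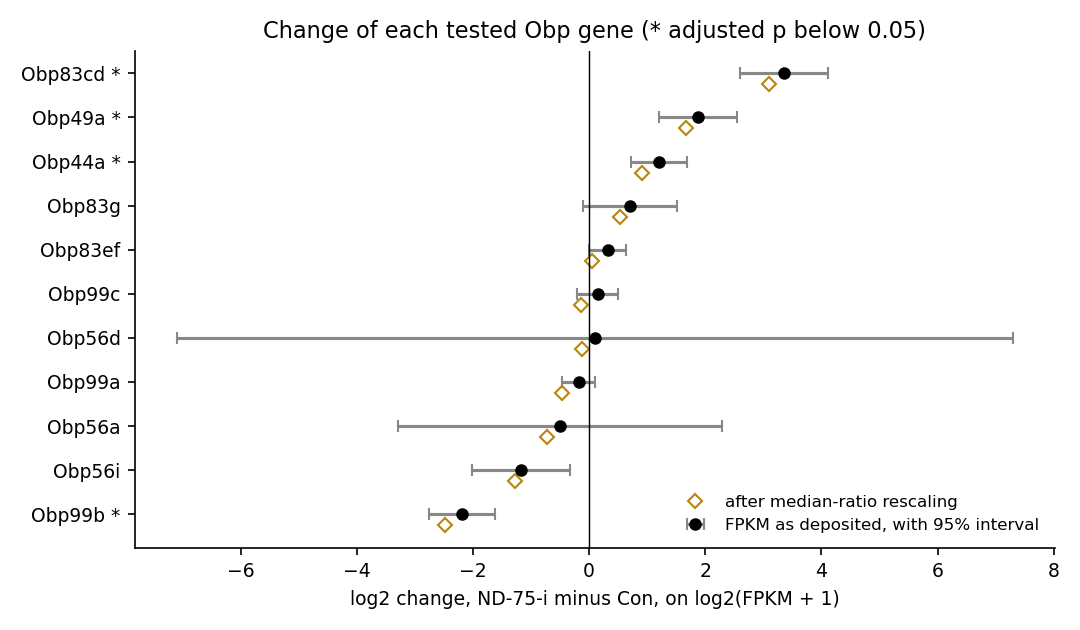
Log2 change of each tested Obp gene, ND-75-i minus Con, on log2(FPKM + 1); filled points are FPKM as deposited with the 95% interval from limma, open diamonds the change after median-ratio rescaling, and asterisks mark an adjusted p below 0.05. Obp99b lies at -2.19 and Obp83cd at 3.35, while the interval of Obp56d runs from -7.10 to 7.30.

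The 32 untested genes never exceeded 1.52 FPKM, the value of Obp18a in Con replicate 2. Of these, 29 were below 1 FPKM throughout and 3 reached 1 FPKM in a single library: Obp18a, Obp93a with 1.32 FPKM in Con replicate 1, and Obp99d with 1.09 FPKM in Con replicate 1. Obp18a was at 0.997 and 0.275 FPKM in ND-75-i and 0.281 and 1.52 FPKM in Con, with no order between the groups. Among the 29, the highest value was 0.946 FPKM, for Obp56e in ND-75-i replicate 1. Nonzero values of these genes corresponded to at most 5 implied fragments, except for Obp50c with up to 17. The Obp50c values were 0.637 and 0.0501 FPKM in ND-75-i and 0.872 and 0.503 FPKM in Con.

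The near-silent genes included members with well described roles elsewhere. Obp57d and Obp57e, taste genes tied to host plant choice in related Drosophila species, were at or below 0.0871 and 0.359 FPKM in every library. Obp59a, known from humidity sensing, reached 0.185 FPKM at most. Obp56g, a component of the seminal fluid, was listed at 0 except for 0.280 FPKM in Con replicate 2. Per library, 24 and 22 of the 43 genes were listed at 0 in ND-75-i and 24 and 23 in Con. Obp47b, Obp51a, Obp59a and Obp85a lie within the span of another gene, Obp57d overlaps Cpr57A by 840 bases, and Obp57b and Obp57c overlap by 542 bases, so that low values there are uncertain. When the low filter was dropped, limma called 0 of the 32 untested genes, and an unadjusted p below 0.05 was seen for 2, both with the lower values in ND-75-i. Obp56c was at 0 and 0 FPKM in ND-75-i and 0.279 and 0.347 FPKM in Con, and Obp8a at 0 and 0 FPKM in ND-75-i and 0.400 and 0.196 FPKM in Con, each from at most 2 implied fragments per library.

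The RefSeq gene table names 9 further family genes under symbols outside the 43, of which 8 had a row in the tables, all but lush under another name. They were Obp19d (Pbprp2), Obp28a (Pbprp5), Obp69a (Pbprp1), Obp73a (CG13027), Obp83a (Pbprp3), Obp83b (Os-E), Obp84a (Pbprp4) and lush. These include the main antennal members, and lush is known for its part in the response to the pheromone cVA. All 8 were below 1 FPKM in every library, with a highest value of 0.396 FPKM for Obp28a in ND-75-i replicate 2. None passed the low filter.

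Other genes that serve smell and taste were likewise scarce. Of 179 chemoreceptor genes (odorant, gustatory and ionotropic receptors by symbol), 173 were below 1 FPKM in every library, 6 were tested, and limma called 1 higher and 0 lower. The called gene was Ir76a, an ionotropic receptor gene, at 5.41 and 5.18 FPKM in ND-75-i and 1.49 and 1.96 FPKM in Con (log2 change 1.21, SE 0.194, limma adjusted p = 0.0442), and it was not called after median-ratio rescaling or in limma-voom. The highest chemoreceptor value was 6.69 FPKM, for the gustatory receptor gene Gr39a in ND-75-i replicate 1.

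Other carriers of small hydrophobic molecules included genes as abundant as Obp99c, and most did not pass the test. Of 23 such genes (lipocalins, fatty acid and acyl-CoA binding proteins, Npc2 sterol carriers and others), 17 were tested, limma called 1 higher and 0 lower, with 3 lower at an unadjusted p below 0.05, and limma-voom called 0 in either direction. Median-ratio rescaling gave 0 higher and 1 lower, and quantile normalization 0 higher and 4 lower. The median change was -0.18, against 0.25 over all genes tested. The 1 called gene was Npc2h, of the Npc2 family, at 195 and 156 FPKM in ND-75-i and 97.3 and 89.4 FPKM in Con (log2 change 0.90, SE 0.142, limma adjusted p = 0.0436). The most abundant was the fatty acid binding protein gene fabp, listed as CG6783, at 2973 and 4287 FPKM in ND-75-i and 6450 and 5591 FPKM in Con (log2 change -0.75, SE 0.232, limma adjusted p = 0.112). Npc2g, at 1700 and 1704 FPKM in ND-75-i and 1421 and 1594 FPKM in Con, lay at about the level of Obp99c. Of 12 genes of sex determination and sex-dependent fat body expression, 10 were tested and limma called 0 and limma-voom 0; the unadjusted p was below 0.05 for 2 higher and 2 lower genes. The yolk protein gene Yp3, known from the adult female fat body, was at 50.4 and 93.9 FPKM in ND-75-i and 318.7 and 207.3 FPKM in Con (limma adjusted p = 0.0643). The gene to (takeout), of the juvenile hormone binding protein family and known like Obp99b from the adult fat body, was listed at 0 in all 4 libraries.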

How the data were processed

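RNA-seq of larval fat body was measured in 4 samples, 2 of each genotype. The authors deposited FPKM per gene with lower and upper bounds and a status; reads were mapped with Bowtie 0.12.2 per the submitters' processing notes, and no source used here gives the quantification program, strand setting, genome build or annotation. Each table had 14146 lines and 13990 distinct symbols; for 93 symbols on several lines the line with the highest mean was kept, and 5 names that a spreadsheet had turned into dates in 1 table were matched by position. Coordinates are those of the tables with 1 added to the start; none of the 43 genes had the same coordinates in BDGP6, which was used only for names, strand and biotype.

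Genes with status OK in all 4 libraries and at least 1 FPKM in at least 2 were tested (10023) with limma 3.58.1 in R 4.3.3 on log2(FPKM + 1), with an intensity trend, group as the only term and Benjamini-Hochberg adjustment. No count test was the main test. Fragment numbers were derived from the width of the bounds; they were whole to within 0.05 for 81.2% to 82.3% of low genes on a single start, and they cover counting error only. Figures were made with Python 3.11.15.

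Every Obp gene that passed the filter is named, the others by level class and highest value, and of the lists up to 3 genes past the threshold; other genes named from the lists and from CG33333 and CG7465 were chosen after their values were seen. The members and lists were chosen with earlier results of these data known. Alternatives were 2 other normalizations, 2 other pseudocounts (0.1 and 5), 2 other low filters, any status, limma-voom on implied fragments, a replicate block and each library left out.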

Additional observations from a re-analysis of the deposited data

How the results depend on the processing

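Over all genes, the 778 calls higher in ND-75-i became 348 after median-ratio rescaling, 214 with no low filter and 337 in limma-voom, and the 109 calls lower became 379 after quantile normalization, 50 with no low filter and 198 with the replicate number as a block. Of the Obp genes, 3 were called higher, against 1 after median-ratio rescaling, 0 with no low filter (4 at an unadjusted p below 0.05 in limma) and 0 in limma-voom (3 at an unadjusted p below 0.05). The 1 Obp gene called lower became 2 after quantile normalization and 0 with no low filter (3 at an unadjusted p below 0.05 in limma). With 1 library left out, limma called 0 to 2 genes higher and 0 to 1 lower over all genes, and of the Obp genes 0 higher (3 at an unadjusted p below 0.05 each time) and 0 lower (1 to 2 at an unadjusted p below 0.05); 1 group then holds a single library that is assumed to vary like the other group. Fewer libraries leave fewer degrees of freedom, and the cause of the other shifts was not tested. Signs turned for Obp99c (-0.14 rescaled by median ratios and -0.39 under quantile normalization), for Obp56a (0.88 without Con replicate 2, in a range of -1.86 to 0.88 with 1 library left out) and for Obp56d (-0.12 rescaled by median ratios, -0.14 under quantile normalization, -0.20 with a pseudocount of 5, -0.0020 in limma-voom, -2.92 without Con replicate 1 and -1.90 without ND-75-i replicate 2, in a range of -2.92 to 3.12 with 1 library left out). Of 140 values of the 11 tested genes under 13 alternatives, 104 kept direction and side of the threshold, 26 lost the call, 1 gained it and 9 turned. With a mean of at least 5 FPKM, Obp49a, Obp56i and Obp83g were not tested. The samples share only a replicate number: with 2 pairs, the deviations of same-numbered samples correlated at 0.357 across genes, and with the replicate number as a block 792 genes were called higher, and 3 Obp genes higher and 1 lower. The count of Obp genes at a mean of at least 10 FPKM was 8 at a boundary of 5 FPKM and 5 at 20 FPKM.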

Other observations

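Markers of 4 further tissues were measured as well. Of 9 hemocyte markers tested, limma called 0 (2 lower at an unadjusted p below 0.05, and 0 in limma-voom), and the list summed to 103.8 and 125 FPKM in ND-75-i and 142.5 and 280.7 FPKM in Con. Of 10 muscle markers tested, limma called 0 (2 higher at an unadjusted p below 0.05, and 0 in limma-voom), with sums of 70.0 and 54.9 FPKM in ND-75-i and 43.9 and 44.0 FPKM in Con. The list of epidermis and trachea had 0 calls by limma among 9 tested genes (1 lower at an unadjusted p below 0.05, and 0 in limma-voom), with sums of 63.3 and 72.4 FPKM in ND-75-i and 40.2 and 115.8 FPKM in Con. Oenocyte markers had 0 calls by limma among 3 tested genes (0 at an unadjusted p below 0.05, and 0 in limma-voom), with sums of 47.7 and 74.0 FPKM in ND-75-i and 50.2 and 45.7 FPKM in Con. In the salivary gland list, ng1 was the 1 call, higher in ND-75-i; median-ratio rescaling gave 0 calls, and quantile normalization 1 higher and 2 lower. It was at 1595 and 1456 FPKM in ND-75-i and 143 and 35.6 FPKM in Con.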
